A study of Mus musculus with 12 samples.

Results

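The BTG and TOB antiproliferative family was followed in the ventricles of humanized phospholamban mice through its 5 genes, Btg1, Btg2, Btg3, Tob1 and Tob2. These were found by their gene symbols among the 33641 genes listed for each sample, and all 5 passed the filter on low values that left 12526 genes for testing. The members were chosen by their names as a family, with the differences between the genotypes in these samples already known, so the values of its members in the comparison of genotypes are given as a description and carry no test, as are the counts of members past the threshold that was applied to all genes. RNA was sequenced from polyA stranded libraries of 12 heart samples in 4 groups of 3, from LV and RV of mice with WT-PLN or with R14del-PLN. In both genotypes the mouse Pln gene carried the coding sequence of human phospholamban, the SR protein that inhibits SERCA2a, in a hybrid line bred from chimeras of 129/Sv and C57Bl/6J origin with Sox2-Cre mice, in which Cre acts in the early embryo and thus in all cell types. The mutant mice were heterozygotes with 1 human WT-PLN and 1 R14del-PLN allele, the latter lacking arginine 14, and the labels call them KO, although no gene was knocked out. The labels give C57BL/6J as the strain of all groups and 12 to 14 weeks as the age, and no treatment. No group of mice that keep their own Pln coding sequence was among the 12 samples. No label states which LV and RV samples came from one heart, so p-values measure the spread between these samples.

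BTG and TOB proteins share an N-terminal domain by which they bind the CAF1 deadenylases CNOT7 and CNOT8 of the CCR4-NOT complex, which shortens the poly(A) tails of messenger RNAs. TOB proteins also bind the poly(A)-binding protein PABPC1, and forced expression of a family member slows the entry of many cell types into the cell cycle. Btg2 is known both as an immediate early gene and as a target of p53, while Btg1 is typical of resting cells. Adult ventricle consists by mass mostly of cardiomyocytes that no longer divide.

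The 5 genes lie on 5 chromosomes of the mouse genome GRCm38, so that no 2 of them are neighbours. Btg1 lies on the forward strand at chr10:96617006-96622809, Btg2 on the reverse strand at chr1:134075170-134079120, and Btg3 on the reverse strand at chr16:78332637-78377192. Tob1 lies on the forward strand at chr11:94211454-94215495 and Tob2 on the reverse strand at chr15:81848272-81858796. The 250 bases before the start site are shown for Btg2, which had the widest range of levels, and for Btg1 and Tob1, whose windows share letters with it. They are RefSeq sequences of GRCm38.p6, written 5′ to 3′ on the strand of the gene, at chr1:134079156-134079405 on the reverse strand, chr10:96616751-96617000 on the forward strand and chr11:94211204-94211453 on the forward strand. Capitals mark the cAMP response element (CRE, TGACGTCA), its core (TGACG), the CCAAT box (CCAAT) and the TATA box (TATAAA), searched on both strands.
Btg2: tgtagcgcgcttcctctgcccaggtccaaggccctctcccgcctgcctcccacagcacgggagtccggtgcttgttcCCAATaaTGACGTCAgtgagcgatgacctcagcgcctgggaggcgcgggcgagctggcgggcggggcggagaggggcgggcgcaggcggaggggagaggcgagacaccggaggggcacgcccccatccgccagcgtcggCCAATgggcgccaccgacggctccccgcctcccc
Btg1: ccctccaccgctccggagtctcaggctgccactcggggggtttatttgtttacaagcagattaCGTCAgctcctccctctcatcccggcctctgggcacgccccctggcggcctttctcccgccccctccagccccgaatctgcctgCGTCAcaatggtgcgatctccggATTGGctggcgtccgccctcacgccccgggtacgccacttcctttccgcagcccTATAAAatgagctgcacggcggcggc
Tob1: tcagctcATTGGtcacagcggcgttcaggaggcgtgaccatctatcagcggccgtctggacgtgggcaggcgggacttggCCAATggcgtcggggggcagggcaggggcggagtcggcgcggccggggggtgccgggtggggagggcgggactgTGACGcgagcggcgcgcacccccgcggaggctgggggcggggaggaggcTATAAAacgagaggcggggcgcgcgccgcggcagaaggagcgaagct
Only the Btg2 window held a full CRE, which begins 166 bases before the start site and contains its own core on both strands. Of the 32851 mouse promoter windows searched, 1.55% held a full CRE. The windows searched on the reverse strand reached past the start site, to chr1:134079106 for Btg2. The shares over all windows are thus not those of the 250 bases shown. The core was also in the windows of Btg1 and Tob1, and in 17.8% of all windows. CCAAT boxes were in these 3 windows and in both start windows of Btg3, and in 33.8% of all windows. A TATA box stood 26 bases before the start site of Btg1 and 47 bases before that of Tob1, and 12.4% of all windows held one. The window of Tob2 lies with all of its 250 bases in an annotated exon and held no CRE, CCAAT or TATA box. The palindromic glucocorticoid response element, the AP-1 letters TGANTCA, the E box CACGTG, the CArG box and the p53 response element had no match in any member's window. Of all windows 0.00913%, 6.75%, 6.02%, 1.47% and 0.0639% held one, in the same order, so that windows without a match were the rule. These matches describe letters in the windows and do not show a bound factor.

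Across all 12 samples, Tob2 had the highest mean of the family at 17.6 TPM and Btg3 the lowest at 2.22 TPM, with Btg2 at 15.2, Tob1 at 13.9 and Btg1 at 6.77 TPM. TPM states the share of all transcripts that belong to a gene after scaling for its length, so the levels of different genes can be set side by side. Among the 12526 tested genes these means stood at percentile 76.9 for Tob2, 73.9 for Btg2, 72.3 for Tob1, 54.1 for Btg1 and 24.9 for Btg3. The ratio of the highest to the lowest sample was 12.8 for Btg2, 5.63 for Btg3, 2.50 for Btg1, 2.44 for Tob2 and 1.29 for Tob1. Btg2 was thus the most variable member and Tob1 the steadiest. The sixth gene of the family, Btg4, which acts in the oocyte, was listed at 0 in 10 samples, and at 0.152 TPM in LV R14del-PLN replicate 3 and 0.184 TPM in RV R14del-PLN replicate 2.

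**Figure D1:**
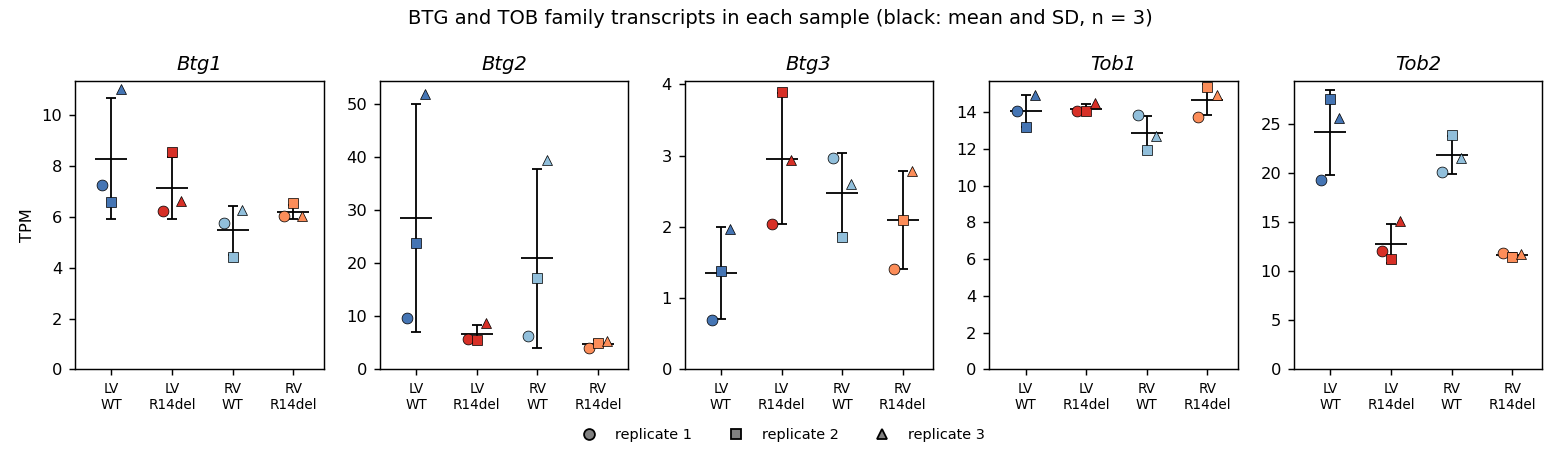
TPM of the 5 family members in each sample of the 4 groups, with points shaped by replicate number and black lines for the mean and SD of 3 samples, each panel on its own axis from 0. Btg2 and Tob2 were higher in every WT-PLN sample than in any R14del-PLN sample of the same ventricle, and Tob1 stayed between 11.9 and 15.4 TPM in all 12 samples.

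Btg2, which recruits deadenylases and is induced within minutes by growth and stress signals, was higher and far more variable in WT-PLN than in R14del-PLN hearts. In LV it was at 9.76, 23.8 and 51.8 TPM in WT-PLN replicates 1, 2 and 3, and at 5.73, 5.58 and 8.71 TPM in R14del-PLN replicates 1, 2 and 3. In RV it was at 6.19, 17.1 and 39.3 TPM in WT-PLN replicates 1, 2 and 3, and at 4.06, 5.02 and 5.35 TPM in R14del-PLN replicates 1, 2 and 3. In each ventricle the WT-PLN and R14del-PLN samples did not overlap, although WT-PLN replicate 1 lay close to the mutant samples in both. The group means were 28.5 ± 21.4 TPM (SD, n = 3) in LV and 20.9 ± 16.9 TPM in the WT-PLN RV, against 6.67 ± 1.77 TPM in LV and 4.81 ± 0.666 TPM in the R14del-PLN RV. The SD was 75.3% and 80.8% of the mean in the WT-PLN groups and 26.5% and 13.9% in the R14del-PLN groups. In the order of the 4 means, LV and WT-PLN RV overlapped, RV of WT-PLN overlapped LV of R14del-PLN, and LV and RV of R14del-PLN did not overlap. The difference of R14del-PLN from WT-PLN was −1.68 ± 0.56 (SE) in LV and −1.59 ± 0.56 in RV, in log2 fold change from limma on log2(TPM + 1), a scale that understates changes at low levels. The same sample numbers were low or high in both ventricles of WT-PLN hearts, with replicate 1 lowest and replicate 3 highest.

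Tob2, which links poly(A)-binding protein to the deadenylase, separated the genotypes with less spread. In LV it was at 19.3, 27.6 and 25.7 TPM in WT-PLN replicates 1, 2 and 3, and at 12.1, 11.3 and 15.1 TPM in R14del-PLN replicates 1, 2 and 3. In RV it was at 20.1, 23.9 and 21.6 TPM in the 3 WT-PLN samples, and at 11.8, 11.5 and 11.8 TPM in the 3 R14del-PLN samples. All 6 WT-PLN samples were above all 6 R14del-PLN samples, whatever the ventricle. The means were 24.2 ± 4.33 TPM (SD, n = 3) in LV and 21.9 ± 1.92 TPM in the WT-PLN RV, and 12.8 ± 2.00 TPM in LV and 11.7 ± 0.186 TPM in the R14del-PLN RV. LV and RV of one genotype, which are neighbours in this order, overlapped in both cases. The log2 fold change of R14del-PLN against WT-PLN was −0.86 ± 0.15 (SE) in LV and −0.84 ± 0.15 in RV. Over all genes, a gene is referred to as called when it had both an adjusted p no higher than 0.05 (limma, Benjamini-Hochberg over all tested genes) and a change of 1.5-fold or more. Tob2 was past this threshold in each ventricle, which is no test of it, since it was chosen with these values known.

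Tob1, the close relative of Tob2, differed little between any groups. It was at 14.1, 13.2 and 15.0 TPM in LV and 13.9, 11.9 and 12.7 TPM in the WT-PLN RV, and at 14.0, 14.0 and 14.5 TPM in LV and 13.8, 15.4 and 15.0 TPM in the R14del-PLN RV. Its means of 14.1 ± 0.873, 12.8 ± 0.959, 14.2 ± 0.253 and 14.7 ± 0.826 TPM (SD, n = 3), in the same order, came from groups that overlapped between genotypes and between ventricles. The log2 fold change by genotype was 0.01 ± 0.11 (SE) in LV and 0.18 ± 0.11 in RV.

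Btg1, the member typical of resting cells, was at 7.26, 6.58 and 11.0 TPM in LV and 5.76, 4.41 and 6.25 TPM in the WT-PLN RV. In R14del-PLN hearts it was at 6.22, 8.53 and 6.63 TPM in LV and 6.04, 6.52 and 6.03 TPM in RV. The RV samples of WT-PLN hearts were all below the LV samples, and the other neighbouring groups overlapped. The means were 8.28 ± 2.38, 5.47 ± 0.956, 7.13 ± 1.23 and 6.20 ± 0.281 TPM (SD, n = 3) in LV and RV of WT-PLN and LV and R14del-PLN RV. By genotype the log2 fold change was −0.17 ± 0.18 (SE) in LV and 0.16 ± 0.18 in RV.

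Btg3, a member that also binds the transcription factor E2F1, was the lowest of the family in each of the 12 samples. It was at 0.690, 1.38 and 1.97 TPM in LV and 2.96, 1.86 and 2.61 TPM in the WT-PLN RV, and at 2.04, 3.88 and 2.94 TPM in LV and 1.41, 2.09 and 2.78 TPM in the R14del-PLN RV. The LV samples of R14del-PLN were all above those of WT-PLN, and the RV samples of the genotypes overlapped. The log2 fold change by genotype was 0.76 ± 0.24 (SE) in LV and −0.18 ± 0.24 in RV.

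These Btg3 values are uncertain, because the gene Gm7334 is 100% identical to Btg3 over all of its 756 bases and was listed at a mean of 5.90 TPM, above Btg3 itself. Gm7334 was at 6.97, 8.02 and 8.53 TPM in LV and 4.69, 5.85 and 3.91 TPM in the WT-PLN RV, and at 5.49, 6.82 and 6.14 TPM in LV and 4.98, 6.32 and 3.11 TPM in the R14del-PLN RV. Btg3 and Gm7334 differed in opposite directions, since Gm7334 was lower by genotype in LV with a log2 fold change of −0.31 ± 0.19 (SE) where Btg3 was higher. The share of Btg3 in the sum of both was 14.2% ± 4.91 (SD, n = 3) in the WT-PLN LV and 31.9% ± 4.62, 34.3% ± 8.83 and 31.3% ± 13.8 in LV of R14del-PLN, RV of WT-PLN and R14del-PLN RV. The sum was 9.19 ± 1.43 TPM in LV of WT-PLN and 9.11 ± 1.59 TPM in the R14del-PLN LV, and the log2 fold change of the sum was −0.01 ± 0.16. In RV the sum was 7.29 ± 0.677 TPM in WT-PLN and 6.90 ± 1.33 TPM in R14del-PLN hearts. How reads shared by both genes were assigned is not stated. Btg3 also overlaps Cxadr on the opposite strand, with 357 identical bases, and Cxadr had a mean of 9.15 TPM. On its own strand Btg3 overlaps Gm49590. Tob2 overlaps Gm49476 on the opposite strand, with 209 identical bases, and no TPM value was found for Gm49476. A short copy of Btg1, Gm14519, and the Btg1 pseudogene entries Btg1-ps1 and Btg1-ps2 were listed at 0 in all samples.

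**Figure D2:**
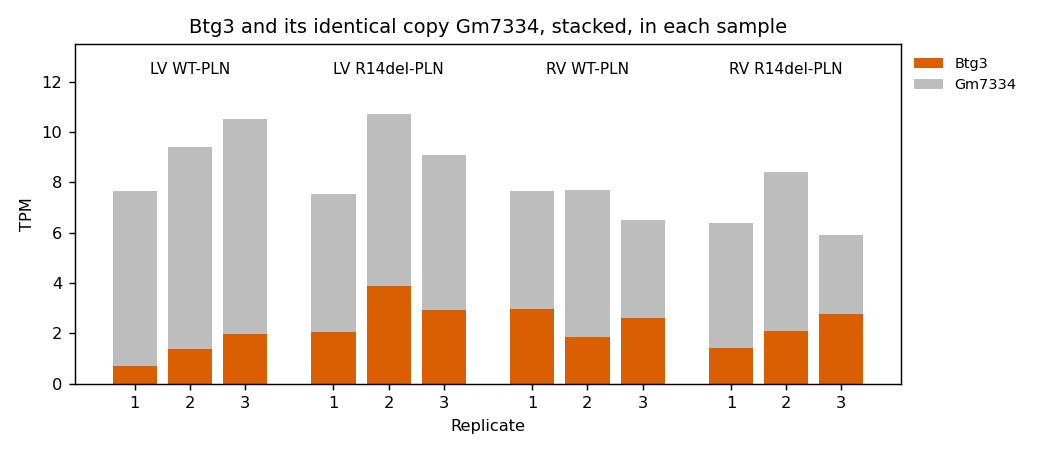
Stacked bars of Btg3 (orange) and its identical copy Gm7334 (grey) in TPM for each replicate of the 4 groups. The orange part was smallest in the WT-PLN LV, at 0.690 to 1.97 TPM, while the full bars were of like height in the LV of both genotypes, at 7.66 to 10.5 TPM in WT-PLN and 7.53 to 10.7 TPM in R14del-PLN hearts.

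Counted over the family, 1 of 5 members was past the threshold in LV and 1 of 5 in RV, Tob2 in both and lower in R14del-PLN hearts. Over all 12526 tested genes, 0.519% were called in LV and 0.271% in RV, and 0.423% and 0.2% were called as lower. The samples of the genotypes did not overlap for Btg2, Btg3 and Tob2 in LV and for Btg2 and Tob2 in RV, against 11% of all tested genes in each ventricle. By direction, 8.47% of all genes were without overlap and lower in LV (as were Btg2 and Tob2), 2.48% higher in LV (as was Btg3) and 5.79% lower in RV. Since these comparisons were known when the family was chosen, nothing is read from these counts. The median log2 fold change of the 5 members was −0.17 in LV and −0.18 in RV, beside −0.09 and −0.0034 over all tested genes.

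**Figure D3:**
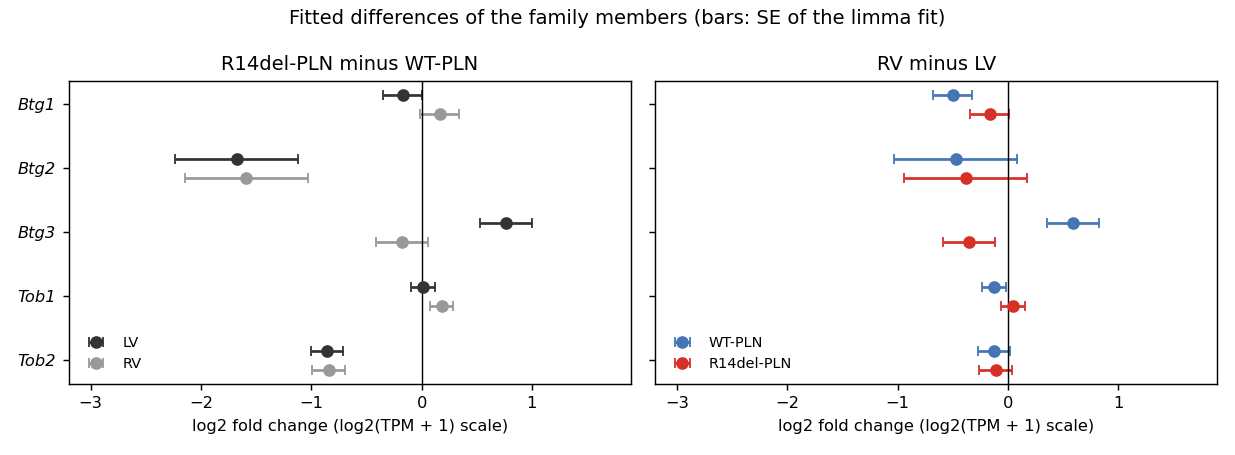
Log2 fold change of each member, on the log2(TPM + 1) scale, for R14del-PLN minus WT-PLN in LV (black) and RV (grey) on the left and for RV minus LV in WT-PLN (blue) and R14del-PLN (red) on the right, with bars for the SE of the limma fit. Tob2 lay near −0.86 in LV and −0.84 in RV with narrow bars, Btg2 had the widest bars, and Btg3 lay on opposite sides of 0 in the 2 ventricles and in the 2 genotypes.

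The size of the Tob2 difference moved little when single samples were left out. In LV the log2 fold change was −0.76 without WT-PLN replicate 2, −0.81 without WT-PLN replicate 3, −0.82 without R14del-PLN replicate 1 and −0.78 without R14del-PLN replicate 2, and it was then no longer past the threshold. In RV it was no longer past the threshold when any 1 of the 6 samples was left out, with −0.90, −0.78 and −0.85 without WT-PLN replicates 1, 2 and 3 and −0.85, −0.83 and −0.85 without R14del-PLN replicates 1, 2 and 3. RV R14del-PLN replicate 3 comes from another sequencing run, by the name of its file, than the other 11 samples. Over 26 alternative settings Tob2 stayed between −1.01 and −0.74 in LV and between −0.90 and −0.78 in RV.

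Btg2 depended on single WT-PLN samples. Without LV WT-PLN replicate 1 its log2 fold change in LV was −2.26, and without LV WT-PLN replicate 3 it was −1.11. In RV it was −2.22 without WT-PLN replicate 1 and −0.98 without WT-PLN replicate 3. WT-PLN replicate 1 of either ventricle also stood apart in their Y-linked genes, whose summed level was 0.250 to 0.284 TPM there and 43.5 to 63.7 TPM in the other 10 samples, while the study describes male mice. With both of these samples left out, 2 of 5 members were past the threshold in each ventricle, Btg2 at −2.26 ± 0.35 (SE) in LV and −2.22 ± 0.35 in RV beside Tob2 at −1.01 ± 0.15 and −0.90 ± 0.15. When both ventricle samples of any other replicate number of either genotype were left out, 0 members were past it, except for 1 in LV without R14del-PLN replicate 3. The part of this difference between the WT-PLN samples in the level of Btg2 was not tested.

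**Figure D4:**
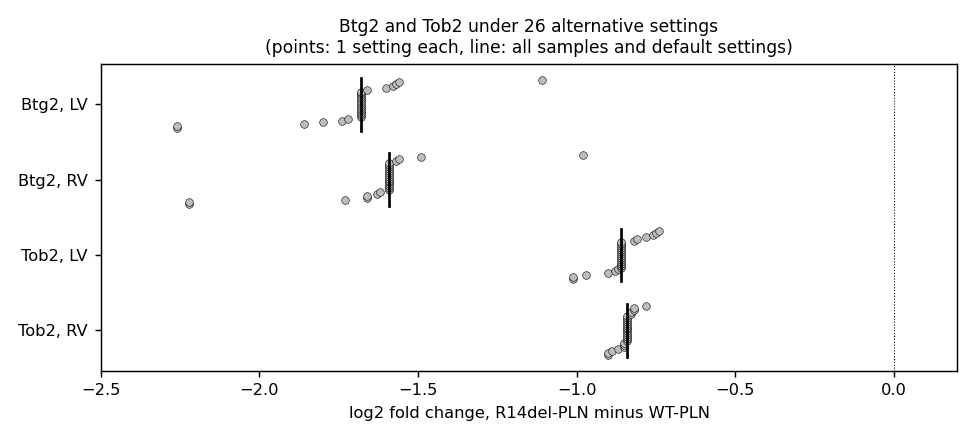
Log2 fold change of Btg2 and Tob2 for R14del-PLN minus WT-PLN in LV and RV under 26 alternative settings (points, spread vertically for sight), with a black line for the value from all samples. All points lay below 0, Btg2 reached from −2.26 to −1.11 in LV and from −2.22 to −0.98 in RV, and Tob2 from −1.01 to −0.74 and from −0.90 to −0.78.

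Between the ventricles of one genotype, 0 of 5 members were called by limma, and of all tested genes 0% were called in either genotype. In WT-PLN hearts the log2 fold change of RV against LV was −0.50 ± 0.18 (SE; adjusted p = 0.290) for Btg1, 0.59 ± 0.24 (adjusted p = 0.305) for Btg3 and −0.47 ± 0.56 (adjusted p = 0.660) for Btg2. For Tob1 it was −0.12 ± 0.11 (adjusted p = 0.559) and for Tob2 −0.13 ± 0.15 (adjusted p = 0.656), and these 2 values turned to between 0.004 and 0.06 under quantile normalization, upper quartile scaling or removal of mitochondrial genes. At an unadjusted p below 0.05 stood 2 of the 5 members, Btg1 and Btg3, and 1811 of the 12526 genes. The median of all genes was itself −0.17 in this comparison, with mitochondrially encoded genes holding 44.0 to 47.3% of the TPM in LV and 48.7 to 52.7% in the WT-PLN RV. Relative to that median, Btg1 and Btg2 were lower, Btg3 higher, and Tob1 and Tob2 lay close to it. Btg2 turned to 0.09 without LV WT-PLN replicate 3 and to 0.16 without RV WT-PLN replicate 1. Btg3 summed with its identical copy Gm7334 was −0.29 ± 0.16 (SE). The samples did not overlap for Btg1, against 26.1% of all tested genes and 25.2% that were lower in RV. Same-numbered LV and RV samples of WT-PLN hearts deviated together. With the numbers of both genotypes as fixed block terms, 12 of the 12526 genes but again 0 members were called. The limma adjusted p-values then ran from 0.152 for Btg1 and 0.168 for Btg2 (−0.47 ± 0.14, SE) to 0.634 for Tob2. This block also took the R14del-PLN sets as pairs, so their spread enters these p-values.

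In R14del-PLN hearts the log2 fold change of RV against LV was −0.17 ± 0.18 (SE; adjusted p = 0.961) for Btg1, −0.38 ± 0.56 (0.988) for Btg2, −0.35 ± 0.24 (0.875) for Btg3, 0.05 ± 0.11 (1.00) for Tob1 and −0.11 ± 0.15 (0.985) for Tob2, with p-values adjusted by Benjamini-Hochberg in limma. None of the 5 members was below an unadjusted p of 0.05, where 823 of the 12526 genes were. The samples did not overlap for Btg2, against 9.98% of all tested genes and 8.72% that were lower in RV. In single values, a two-sided exact permutation test of 3 against 3 samples gave p = 0.1 for Btg1 in WT-PLN and for Btg2 in R14del-PLN hearts, which is the smallest p this design allows, and 0.2 to 0.6 for the other 8 comparisons. Adjusted over the 10 comparisons these were 0.4 to 0.6. This test leaves the numbers aside. Among the 6 sets of same-numbered LV and RV samples, Btg1 and Btg2 were lower in RV in 6, Tob1 and Tob2 in 4 and Btg3 in 3. The RV to LV ratios were 0.568 to 0.971 for Btg1 and 0.614 to 0.900 for Btg2. The R14del-PLN sets were not taken as pairs in the exact tests, but they were in the blocks of genotype and number. RV was also lower by the median of all genes, at log2 fold changes of −0.17 for WT-PLN and −0.08 for R14del-PLN. How many of all genes were lower in RV in all 6 sets was not counted. With the 3 WT-PLN pairs kept, a two-sided exact permutation test within pairs gave p = 0.25 for Btg1, Btg2, Btg3 and Tob1, the smallest p that 3 pairs allow, and 0.5 for Tob2 (0.312 and 0.5 adjusted over these 5 tests).

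The difference between the ventricles in the effect of genotype, the interaction, is built from the same known comparisons and is likewise a description for the members. Of all tested genes 0% were called for it by limma, here at an adjusted p of at most 0.05 alone, with 127 of 12526 below an unadjusted p of 0.05. None of the 5 members was past that threshold. On the log2 scale it was 0.02 ± 0.21 (SE) for Tob2, 0.09 ± 0.79 for Btg2, 0.17 ± 0.15 for Tob1, 0.34 ± 0.25 for Btg1 and −0.94 ± 0.33 for Btg3. With Btg3 and Gm7334 summed it was −0.07 ± 0.23.

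The order of the members within a sample differed between the genotypes. In WT-PLN hearts Tob2 was above Tob1 in all 6 samples, and in R14del-PLN hearts Tob1 was above Tob2 in 5 of 6 samples. In all 12 samples Btg1 was below both Tob genes and above Btg3. Btg2 moved through the order, as it was the highest member in replicate 3 of both WT-PLN ventricles, the second in replicate 2, the third in replicate 1, and below Btg1 in 5 of the 6 R14del-PLN samples. The exception among the R14del-PLN samples was LV replicate 3 for both orders. Btg2 was above Tob1 in 4 samples, all of them from WT-PLN hearts.

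As a description over the 12 samples, Pearson's r of log2(TPM + 1) was 0.842 between Btg2 and Tob2, 0.569 between Btg1 and Tob1 and −0.514 between Tob1 and Tob2, and between −0.357 and 0.321 for the other 7 pairs. All points share the genotype difference, and with the group means removed the value for Btg2 and Tob2 was 0.589. Among the 6850 genes that averaged 5 TPM or more, those most like Btg2 were Nr4a1 (r = 0.980), Errfi1 (0.979) and Ier2 (0.976). Nr4a1, an orphan nuclear receptor, was at 3.92, 29.5 and 58.2 TPM in LV of WT-PLN replicates 1, 2 and 3 and between 1.00 and 2.61 TPM in the R14del-PLN LV, the same ranking of WT-PLN samples as for Btg2. Errfi1, a feedback inhibitor of the EGF receptor, was at 5.57, 24.2 and 71.3 TPM in the same WT-PLN samples, and Ier2 at 4.16, 8.96 and 28.4 TPM. With the group means removed these r were 0.964, 0.994 and 0.971 over all samples together. In the R14del-PLN RV, where Btg2 ran from 4.06 to 5.35 TPM, Nr4a1 lay between 1.20 and 1.23 TPM and Ier2 between 2.88 and 2.97 TPM.

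Most like Tob2 were Fam107a (r = 0.991), Per1 (0.989) and Tsc22d3 (0.979). Fam107a, a stress-responsive gene that binds actin, was at 11.0 ± 1.96 TPM in LV and 9.32 ± 0.765 TPM in the WT-PLN RV and at 3.83 ± 0.954 and 3.30 ± 0.318 TPM in LV and R14del-PLN RV (SD, n = 3). Per1, a repressor of the circadian clock, was at 20.5 ± 3.48 and 17.4 ± 2.71 TPM in WT-PLN and 8.19 ± 1.68 and 7.86 ± 0.729 TPM in R14del-PLN hearts. Tsc22d3, the glucocorticoid-induced leucine zipper, was at 89.5 ± 15.2 and 83.7 ± 6.18 TPM in WT-PLN and 38.4 ± 6.96 and 37.5 ± 2.33 TPM in R14del-PLN hearts. With group means removed the r with Tob2 were 0.922, 0.914 and 0.817. The remaining members had weaker matches, which were Bhlhe41 (0.883), Fam78a (0.859) and Sf3a2 (0.844) for Tob1, Mbtps1 (0.909), Lrch4 (0.870) and Rnpepl1 (0.866) for Btg1, and Igsf1 (0.742), Itga6 (0.671) and Gm17420 (0.608) for Btg3.

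**Figure D5:**
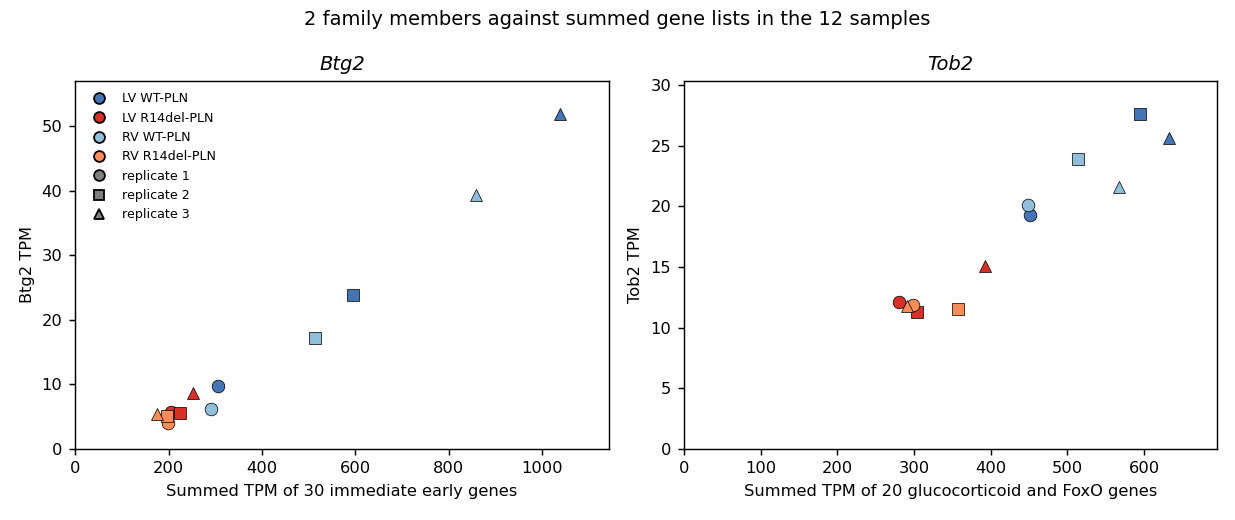
TPM of Btg2 against the summed TPM of 30 immediate early genes (left) and TPM of Tob2 against the summed TPM of 20 glucocorticoid and FoxO responsive genes (right), with 1 point per sample, coloured by group and shaped by replicate number, on linear axes from 0. On the left the WT-PLN samples ran from 292 to 1039 summed TPM with Btg2 from 6.19 to 51.8 TPM, while the R14del-PLN samples lay together at 175 to 253. On the right the WT-PLN samples (449 to 632 summed TPM) lay apart from the R14del-PLN samples (280 to 392) on both axes.

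The 30 immediate early genes, which are switched on by signals without new protein synthesis, summed to 307, 594 and 1039 TPM in LV and to 292, 513 and 858 TPM in RV of WT-PLN replicates 1, 2 and 3. In R14del-PLN hearts they summed to 206 to 253 TPM in LV and 175 to 198 TPM in RV, below every WT-PLN sample. Btg2 followed these sums with r = 0.984 over 12 samples, 0.990 over the 6 WT-PLN samples and 0.739 over the 6 R14del-PLN samples. By sign, 29 of the 30 genes were lower in LV and 28 in RV, with median log2 fold changes of −1.24 and −1.11. Called as lower were 3 in LV (Ctgf, Klf2 and Ier5) and 1 in RV (Ctgf), with 0 called as higher. These calls depended on which samples were in the fit. When both ventricle samples of 1 replicate number of a genotype were left out, the calls in LV were 0 for 5 of the 6 choices and 21 without WT-PLN replicate 1, and those in RV were 0 for 3 choices, 1 without R14del-PLN replicate 1 or 2, and 13 without WT-PLN replicate 1. The median remained negative under each choice, from −1.66 to −0.93 in LV and from −1.52 to −0.78 in RV. Ctgf, a secreted matricellular protein, was at 107 ± 45.1 TPM in WT-PLN and 25.3 ± 3.11 TPM in R14del-PLN hearts in LV (log2 fold change −1.95 ± 0.39, SE; limma adjusted p = 0.0476). In RV it was at 155 ± 63.4 and 25.0 ± 14.1 TPM (−2.62 ± 0.39; limma adjusted p = 0.0102). Klf2, a factor induced by flow in endothelium, was at 26.9 ± 11.5 and 8.83 ± 0.588 TPM in LV, and Ier5 at 15.2 ± 2.11 and 7.33 ± 1.28 TPM.

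The 20 genes that respond to glucocorticoids or FoxO factors summed to 451 to 632 TPM in LV and 449 to 567 TPM in the WT-PLN RV, and to 280 to 392 and 290 to 358 TPM in R14del-PLN hearts. Tob2 followed these sums with r = 0.958 over 12 samples, 0.842 over the 6 WT-PLN samples and 0.666 over the 6 R14del-PLN samples, where Spearman's rho was −0.03. Each of Btg2 and Tob2 also followed the other list. By the median r over single genes, Tob2 was at 0.853 with this list and 0.791 with the immediate early genes, and Btg2 at 0.791 and 0.915. Over all tested genes the median r was 0.277 for Tob2 and 0.407 for Btg2. With group means removed the values for the lists were 0.545 and 0.541 for Tob2 and 0.557 and 0.834 for Btg2, in the same order. Tob2 was then at 0.657 with 12 endothelial genes, 0.588 with p53 and its targets and 0.555 with macrophage markers. With the other lists it was below its value for this list, so its likeness was not particular to this list. Btg2 was then highest with the immediate early genes, ahead of 0.685 with smooth muscle and pericyte markers. By sign, 18 of the 20 genes were lower in LV and 16 in RV, with median log2 fold changes of −0.62 and −0.56. Called as lower were 7 in LV and 5 in RV, with 0 called as higher. With the same 6 choices of left-out samples the counts ran from 1 without WT-PLN replicate 3 to 9 without WT-PLN replicate 1 in LV, and in RV from 1 without WT-PLN replicate 2 or 3 to 7 without WT-PLN replicate 1. Ddit4, an inhibitor of mTORC1, fell by 1.56 on the log2 scale in LV (SE 0.26; limma adjusted p = 0.0170) and by 1.42 in RV (limma adjusted p = 0.0372). Zbtb16, a zinc finger factor, fell by 1.30 in LV (limma adjusted p = 0.00553) and by 1.26 in RV (limma adjusted p = 0.00897). Per1 fell by 1.23 in LV and 1.05 in RV, with limma adjusted p-values of 0.00440 and 0.0168. Fkbp5, a chaperone partner of the glucocorticoid receptor, fell by 1.20 in LV (limma adjusted p = 0.0191) and was −0.94 in RV (limma adjusted p = 0.0944). This list and the immediate early genes were set with earlier results of these data known, so their direction is not independent evidence.

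Of p53 and its targets, the group in which Btg2 is usually placed, 2 of 18 tested genes were called as lower in LV and 1 in RV, with 0 called as higher. By sign, 11 of the 18 were lower in LV and 9 in RV, and the median log2 fold change was −0.07 in LV and −0.00034 in RV. With the 6 choices of left-out samples the calls were 4 in LV and 3 in RV without WT-PLN replicate 1, 1 in each ventricle without R14del-PLN replicate 3, and 0 for the other 4 choices. Cdkn1a, the cell cycle inhibitor p21, was at 13.2 ± 5.29 TPM in WT-PLN and 3.60 ± 0.989 TPM in R14del-PLN hearts in LV (log2 fold change −1.57 ± 0.27, SE; limma adjusted p = 0.0198) and at 7.90 ± 2.49 and 2.26 ± 0.282 TPM in RV (−1.42 ± 0.27; limma adjusted p = 0.0507). Sesn1, a stress sensor upstream of mTORC1, fell by 0.75 in LV (limma adjusted p = 0.0120) and by 0.72 in RV (limma adjusted p = 0.0168).

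The machinery that BTG and TOB proteins act through showed no called difference. Of 15 tested genes of CCR4-NOT and other deadenylases, 0 were called in either ventricle and 0 were below an unadjusted limma p of 0.05, with median log2 fold changes of −0.14 in LV and 0.02 in RV. Cnot7, the deadenylase that BTG and TOB proteins bind, was at 33.5 ± 4.49 TPM in WT-PLN and 28.2 ± 6.67 TPM in R14del-PLN hearts in LV (log2 fold change −0.26 ± 0.17, SE) and at 24.4 ± 2.75 and 26.9 ± 3.25 TPM in RV (0.13 ± 0.17). Cnot6, the second kind of catalytic subunit, gave −0.19 ± 0.14 in LV and −0.06 ± 0.14 in RV. Of 14 tested binding partners 0 were called, with 3 in LV and 1 in RV below an unadjusted limma p of 0.05. Among them were Smad7, an inhibitor of TGF-β signalling, at −0.51 ± 0.22 in LV and −0.49 ± 0.22 in RV, and Cpeb4, a protein that binds the 3′ ends of transcripts, at −0.43 ± 0.18 and −0.29 ± 0.18.

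Of 22 cell cycle genes that are repressed in quiescent cells, 16 were high enough to be tested and 0 were called in either ventricle, with 0 below an unadjusted limma p of 0.05. Their median log2 fold change was 0.02 in LV and 0.05 in RV. Rrm2, a subunit of ribonucleotide reductase, was at 1.12 ± 0.380 TPM in WT-PLN and 1.53 ± 0.136 TPM in R14del-PLN hearts in LV (log2 fold change 0.27 ± 0.13, SE), and Myc was at 2.16 ± 1.37 and 1.17 ± 0.283 TPM (−0.47 ± 0.23).

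The tissue was checked with markers of the cell types a piece of ventricle can hold, and in bulk samples fewer cells of a type and less RNA per cell cannot be told apart. The 12 ventricular cardiomyocyte markers summed to 45788 to 68566 TPM over the 12 samples, and none of their genes was at 0 in any group. Over all 12526 tested genes, 0.519% were called by genotype in LV and 0.271% in RV, and 1203 and 779 were below an unadjusted limma p of 0.05. In each marker list 0 genes were called by genotype in either ventricle. With the 6 choices of left-out samples this held for every marker list but the red cell genes, of which 3 were called as lower in LV and 1 in RV without R14del-PLN replicate 3. Beside the lower Btg2 and Tob2 of R14del-PLN hearts, all 5 tested red cell genes had a negative log2 fold change in both ventricles (medians −0.62 in LV and −0.59 in RV, 4 and 3 of them below an unadjusted limma p of 0.05), and their sums were 2088 to 2316 TPM in LV and 1461 to 1736 TPM in the WT-PLN RV against 1093 to 2142 and 956 to 1368 TPM in R14del-PLN hearts. All 10 fibroblast genes were also negative in both ventricles (medians −0.38 and −0.17), with sums of 743 to 1245 and 823 to 1051 TPM in WT-PLN and 579 to 911 and 633 to 983 TPM in R14del-PLN hearts. The 8 atrial markers summed to 1344 TPM in LV WT-PLN replicate 3, the sample with the highest Btg2, against 225 and 329 TPM in the other LV WT-PLN samples and 159, 332 and 271 TPM in the R14del-PLN LV. They summed to 911 TPM in RV WT-PLN replicate 2, where Btg2 was at 17.1 TPM. In RV WT-PLN replicates 1 and 3 these markers summed to 117 and 101 TPM, with Btg2 at 6.19 and 39.3 TPM. In the R14del-PLN RV they summed to 219, 544 and 59.0 TPM. By genotype all 7 tested atrial genes had a negative log2 fold change in LV, with a median of −2.00, the most negative of the marker lists, and in RV the median was −0.07. With the 6 choices of left-out samples the atrial median ran from −2.83 to −1.01 in LV and from −0.77 to 0.84 in RV. The 12 endothelial markers had medians of −0.19 in LV and −0.01 in RV, the 10 tested macrophage markers −0.15 and −0.03, and the 10 smooth muscle and pericyte markers −0.13 and 0.10. Of 13 lymphocyte markers only Ighm was tested, at 0.34 ± 0.17 (SE) in LV and 0.50 ± 0.17 in RV. The 2 genes of each other list with the smallest unadjusted p are given by their log2 fold changes in LV and RV. Among macrophage genes these were Cd163 (−0.75 and −0.81) and Ptprc (−0.24 and 0.12), among fibroblast genes Mfap5 (−0.87 and −0.19) and Col1a1 (−0.51 and −0.21), and among red cell genes Hba-a1 (−0.62 and −0.65) and Hbb-bt (−0.66 and −0.83). Endothelial genes gave Kdr (0.47 and 0.56) and Esam (−0.50 and −0.23), smooth muscle genes Tagln (−1.04 and 0.43) and Myh11 (−0.85 and 0.38), atrial genes Dkk3 (−2.00 and 0.03) and Upk3b (−0.30 and −0.90), and ventricular genes Myoz2 (0.22 and 0.26) and Pln (−0.14 and −0.04). None of these was called. The part of these cell types in the levels of the family was not tested.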

How the data were processed

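The authors deposited 1 table per sample with a TPM value for each gene. Per the study's methods, reads were mapped to GRCm38 with CLC Genomics Workbench, and the program and annotation that made the TPM values are not given in the sources used here. The TPM values of every sample sum to the same total, so depth is unknown and no counting interval can be given. Groups and replicate numbers came from the labels.

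The exact permutation tests compared means of untransformed TPM. All other tests were made on log2(TPM + 1) with limma 3.58.1 in R 4.3.3 (4 group means over the 12 samples, moderated variances with a trend on the mean level, residual degrees of freedom 8, prior 5.15) over the 12526 genes that averaged 0.5 TPM or more, with Benjamini-Hochberg adjustment over all of them. Genes were called at an adjusted p of at most 0.05 and a change of at least 1.5-fold, and for the interaction at the adjusted p alone. The fit was tested on simulated data for the LV comparison with 12526 genes, where it found 90 of 100 genes changed by 1 and 98 of 100 changed by 2 on the log2 scale, and called 8 unchanged genes. The simulated samples were independent of each other, unlike same-numbered WT-PLN samples, so these counts may not carry over to the real data. The members and gene lists were chosen with earlier results of these data known. The genes named were the 5 members, Btg4, up to 4 called genes of each list with the largest change (the 2 with the smallest p in a list without a call), the 3 genes most correlated with each member, and near-identical copies. Copies were searched with BLAST 2.17.0 in GENCODE transcripts.

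Deviations from the group means correlated between LV and RV samples of one number at 0.321 to 0.657 in WT-PLN hearts and at 0.0542 to 0.389 in R14del-PLN hearts. The exact test within pairs used WT-PLN hearts alone. The blocks of genotype and number, fixed or random, took same-numbered samples of both genotypes as pairs. Same-numbered samples of the 2 genotypes correlated at −0.0209 to 0.156 in LV and 0.0610 to 0.219 in RV. Left-out samples that leave 2 in a group were fitted with the spread shared by all groups. Alternatives were other pseudocounts, filters and scalings, replicate blocks, and samples left out. The fixed block of genotype and number and the sum of Btg3 and Gm7334 were added after the values were seen, as were the counts of list genes with both ventricle samples of each replicate number of each genotype left out in turn and the exact test within WT-PLN pairs. The random block used statmod 1.5.0, exact tests used scipy 1.17.1 under Python 3.11.15, and tables and figures were made with pandas 2.3.3, matplotlib 3.10.9 and numpy 2.4.6.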

Additional observations from a re-analysis of the deposited data

Results flagged for a closer look

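Btg3 differed between the genotypes in its contrast of the ventricles. Every RV sample was above the LV mean in WT-PLN hearts and below the LV mean in R14del-PLN hearts. The single LV and RV samples overlapped in both genotypes. The interaction was −0.94 ± 0.33 (SE) on the log2 scale. This difference is counted as not tested, since it is built from comparisons known when the members were chosen, and its limma adjusted p over the 12526 genes was 1.00. Over the single samples left out it was between −1.13 and −0.73, and with the identical copy Gm7334 added to Btg3 it was −0.07.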

How the results depend on the processing

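The count of members called by genotype was 1 in LV and 1 in RV. It was 0 in both without the filter on low values (a test over 22948 genes), 0 in LV with only the 6 samples of the comparison, 2 in both with the 2 replicate 1 samples of WT-PLN left out, and 0 to 1 in LV and 0 to 1 in RV with single samples left out. The cause of these changes was not tested beyond the number of genes or samples. Over all genes, the 65 called in LV became 19 to 153 and the 34 in RV 14 to 48 with single samples left out, and 22 to 231 and 17 to 88 under the other alternatives, and the split of higher and lower calls of 12 and 53 in LV became 39 and 65 under quantile normalization, and that of 9 and 25 in RV 31 and 42 without mitochondrial genes. No member was called between ventricles or as an interaction under any alternative. A replicate block changed no call of a member: Tob2 stayed at −0.86 in LV and −0.84 in RV, the interaction of Btg3 at −0.94, and the count of all genes called rose to 119 in LV and 62 in RV with the number as a fixed term.

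Of 655 single values of members under alternatives, 27 changed sign, all of them uncalled. By genotype in LV, Btg1 ranged from −0.30 to 0.03 and Tob1 from −0.03 (−0.0015 at the other change of sign) to 0.05 with samples left out, and Btg3 summed with Gm7334 was −0.01. For RV against LV in WT-PLN hearts, Btg2 ranged from −1.08 to 0.16 with samples left out (0.09 without LV WT-PLN replicate 3 and 0.16 without RV WT-PLN replicate 1), and Btg3 summed with Gm7334 was −0.29. Under quantile normalization, upper quartile scaling and without mitochondrial genes, Tob1 was 0.06, 0.06 and 0.004 and Tob2 0.05, 0.06 and 0.01. In R14del-PLN hearts Tob2 was 0.04 without mitochondrial genes and −0.19 to 0.003 with samples left out. The interaction of Btg2 was −0.02 and −0.01 and that of Tob2 −0.08 and −0.08 under the first 2 scalings, and with samples left out they ranged from −0.55 to 0.70 for Btg2 and from −0.08 to 0.16 for Tob2. Depth is unknown, so what it limits cannot be given.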
